A study of Brassica napus with 27 samples.

Results

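The distal block of chromosome A07 of oilseed rape (Brassica napus) is a run of neighbouring genes whose transcript levels moved together from one group of leaves to another. It was taken as the genes numbered from BnaA07g22070D to BnaA07g32880D, in which the number after the g follows the order along the chromosome. The interval was selected on measured values, because neighbouring genes in it were displaced together in the Pic 48 h and control 2 h leaves. Those displacements are therefore given as a description, without a test. A gene counted as a member if it reached 1 FPKM (fragments scaled to gene length and to the size of the library) in at least 3 of the 27 libraries. Of 1080 genes in the interval 598 did so and 482 did not, and 2 named genes were left out by the rule. The whole table holds 104573 genes, of which 46395 reached the same level and form the set of tested genes.

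The leaves came from the oilseed rape cultivar Visby, grown at 15 °C with 12 h of light to leaf stage BBCH11. Each leaf received 5 drops of the synthetic auxin halauxifen-methyl (Hal, labelled as 0.5 µg per leaf), of the synthetic auxin picloram (Pic, 2.4 µg per leaf) or of solvent alone (control), and was harvested after 2, 48 or 96 h. The sources differ on whether the dose is given per leaf, per µl or per plant, and on whether the control is called untreated or solvent-treated. Each of the 9 groups held 3 libraries labelled as replicates, and all groups shared the same cultivar. No genotype or DNA copy number was analysed here, and whether the plants of a group were genetically alike is not given in the sources used here.

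Between 15565637 and 19692242 reads per library were assigned to genes (median 16989644), and 1.16 to 1.66% of them fell on the 598 members. As a check of the tissue, 58 leaf genes summed to between 98665 and 198111 FPKM in every library and 16 seed genes to at most 1.38 FPKM. All 27 column names could be matched to a sample.

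Oilseed rape is an allotetraploid that carries an A and a C subgenome, so that most genes have a counterpart, the homoeologue, on the other subgenome. The homoeologues encode closely related proteins and are often both transcribed in the same tissue. Exchanges between homoeologous chromosome arms are known in this species, and after one the plant carries extra copies of one homoeologue and fewer of the other. Transcript levels alone do not separate the number of gene copies from the transcription of each copy, nor fewer cells of a type from less RNA per cell. In addition, reads from near-identical homoeologues can be assigned to either of them, and how such reads were treated is not given in the sources used here.

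The block was an ordinary stretch of genes by gene length and domain annotation, which the rule did not use. All 598 members were listed as protein coding, and they lay on 8 sequence scaffolds with 6 to 174 members each. Their median gene length was 1308 bases, against 1265 bases for all tested genes, and 37.0% of them carried a protein domain annotation, against 35.3% of all tested genes. The median of their mean FPKM over the 27 libraries was 3.11, against 2.85 for all tested genes, with a range of 0.332 to 925. That mean includes the libraries whose values chose the interval. A description was given for 27 members and a domain for 221, and 361 had neither. Coordinates in the table are given per scaffold, and the genome build is not given in the sources used here. NAC transcription factor 29 (BnaA07g28000D), for instance, lay on scaffold LK031892 from 141219 to 142202 on the minus strand, glutamate decarboxylase (BnaA07g25530D) on LK031978 from 883125 to 887352 on the plus strand, and defensin 1.2 (BnaA07g32150D) on LK031850 from 1674762 to 1675380 on the minus strand. Protein kinase domains were the most frequent (Pkinase in 21 members and Pkinase_Tyr in 6), followed by Myb DNA-binding domains in 9, which mark a family of transcription factors.

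The expression filter had little to do with the groups that chose the interval. Without the Pic 48 h and control 2 h libraries 583 of the 598 members still reached it, and 319 members were at 1 FPKM or more in every one of the 27 libraries. The member nearest above the limit was BnaA07g32730D, which carries a sugar transporter domain and whose third-highest value was 1.009 FPKM. The gene nearest below it was BnaA07g28440D, whose third-highest value rounds to 1.000 FPKM. Right at the edges the values of single genes were uneven. The 5 genes inside the start deviated by a median of 0.32 in Pic 48 h and the 5 genes outside it by 0.46. At the end the median was 0.60 for 5 genes inside and 0.22 for 5 genes outside. In control 2 h these medians were 0.23 inside and 0.03 outside the start, and -0.07 inside and -0.38 outside the end. A deviation here and below is the log2(FPKM + 1) of a gene in a library minus the median of that gene over all 27 libraries.

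In the Pic 48 h leaves the members stood above their own medians as a body. The median deviation of the members was 0.32 ± 0.0035 (SD, n = 3), and between 77.3 and 79.9% of them lay above their own median in each library, against 47.7 to 48.5% of all tested genes. The 3 libraries differed from each other by far less than the displacement itself. The remaining 1470 tested genes of A07 had a median deviation of 0.01 ± 0.0046 in the same leaves. All 3 Pic 48 h libraries lay above all 3 control 48 h libraries in 252 members (42.1%), against 18.8% of all tested genes, and below them in 68 (11.4%), against 21.7% of all tested genes. For 71 members (11.9%, against 1.23% of all tested genes) each Pic 48 h library was higher than any of the 24 other libraries. These counts rest on Pic 48 h, a group whose values chose the interval, and are a description only.

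The displacement was found in each window of the block. The tested genes of the 19 chromosomes were cut into 822 windows of about 50 consecutive genes, of which 12 made up the block. In Pic 48 h the median deviation of the 12 windows ran between 0.20 and 0.45, and the highest value was that of the window from BnaA07g23980D to BnaA07g25120D. Among the 810 other windows of the genome, 13 reached 0.2 or more in Pic 48 h and 32 lay at -0.2 or below. Of those 32 windows 18 were on chromosome C06.

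In the control 2 h leaves neighbours stood together upward at the start of the block and downward at its end. The last 3 windows, from BnaA07g30350D on, had median deviations of -0.30, -0.40 and -0.31, while the first 2 windows had 0.14 and 0.19. Over the whole block these opposite values gave a median deviation of -0.02 ± 0.0040 (SD, n = 3). The block thus had no single direction in control 2 h.

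The displacements did not stop at the last member. The 3 windows beyond the block, from BnaA07g32890D to BnaA07g35200D, had median deviations of 0.20, 0.23 and 0.30 in Pic 48 h and of -0.25, -0.31 and -0.34 in control 2 h. From BnaA07g36200D to the end of the chromosome both groups were within 0.10 of zero. On the other side, the 3 windows from BnaA07g18700D to BnaA07g21220D were displaced in the opposite direction in Pic 48 h, by -0.28, -0.30 and -0.38. The window between these and the block stood at 0.02 in Pic 48 h, where the first window of the block stood at 0.30, and at -0.41 in Hal 2 h.

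**Figure D1:**
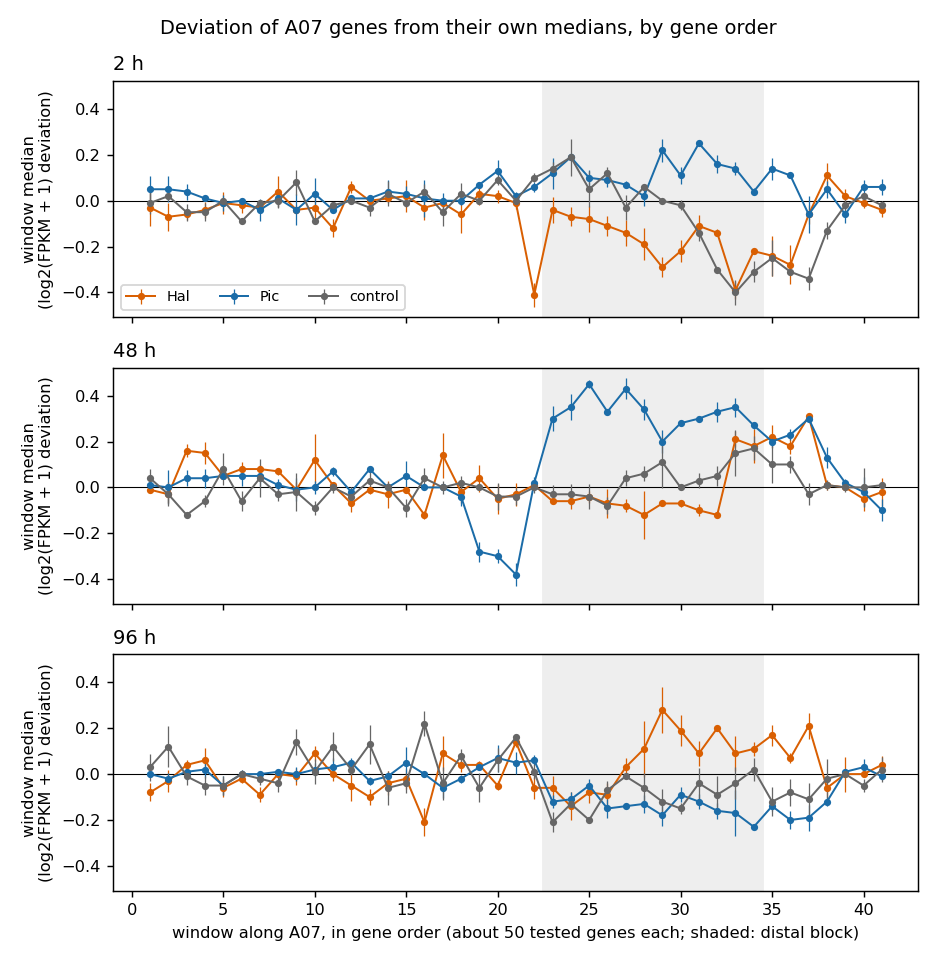
Median deviation (log2(FPKM + 1) minus the gene's median over 27 libraries) in windows of about 50 tested genes along A07, with a panel per time; points are means and bars the SD of 3 libraries, and the block is shaded. In Pic 48 h all 12 windows of the block lie between 0.20 and 0.45, and in control 2 h the last 3 lie between -0.40 and -0.30.

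The other 7 groups, which played no part in the choice of the interval, also had levels of their own over the block. The median deviation of the members was -0.16 ± 0.0054 in Hal 2 h, 0.12 ± 0.012 in Pic 2 h, -0.03 ± 0.018 in Hal 48 h and 0.02 ± 0.016 in control 48 h. At 96 h it was 0.04 ± 0.024 in Hal, -0.13 ± 0.0089 in Pic and -0.09 ± 0.022 in control leaves (SD, n = 3 each). The order over the 9 groups from highest to lowest was Pic 48 h, Pic 2 h, Hal 96 h, control 48 h, control 2 h, Hal 48 h, control 96 h, Pic 96 h and Hal 2 h. Neighbours in the middle of this order, such as Hal 96 h and control 48 h or control 2 h and Hal 48 h, differed by no more than about their SD. Over the rest of A07 the group medians stayed between -0.04 and 0.03, although single windows near the block were displaced, as given above.

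The stretch of the C subgenome with the same gene order had median deviations of the opposite sign. To find it, the order of described and domain-bearing genes of the interval was aligned with that of every other chromosome, with gene length as a second criterion and without any use of expression. Chromosome C06 in forward order scored 591.1 with 314 aligned pairs, from BnaC06g22810D to BnaC06g37390D, and the next best chromosome scored 26.2 with 30 pairs. A pair is thus an inference from gene order, and no sequence was compared. In 160 pairs both genes were tested, and the C06 stretch held 658 tested genes.

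In Pic 48 h the C06 stretch had a median deviation of -0.53 ± 0.013 (SD, n = 3), where the block had 0.32. All 3 Pic 48 h libraries lay below all 3 control 48 h libraries in 383 of its 658 genes (58.2%, against 21.7% of all tested genes). For 134 genes of the stretch (20.4%, against 1.28% of all tested genes) each Pic 48 h library was lower than any of the 24 others. The sign was also opposite to that of the block in each of the other 8 groups, with 0.14 in Hal 2 h, -0.12 in Pic 2 h and 0.09 in control 2 h. At 48 h it was 0.08 in Hal and -0.01 in control leaves, and at 96 h -0.06 in Hal, 0.15 in Pic and 0.13 in control leaves. In control 48 h both stretches lay within about 1 SD of zero, so that their signs there carry no weight.

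**Figure D2:**
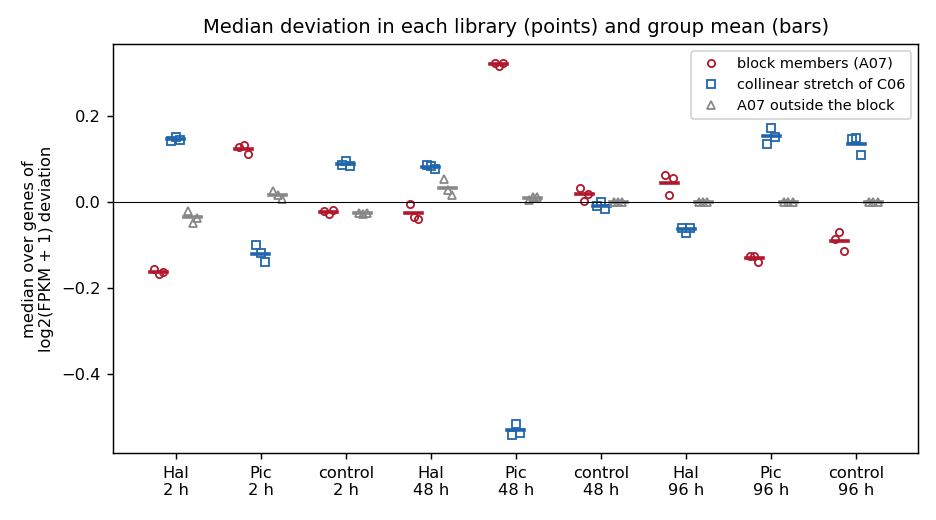
Median deviation (log2(FPKM + 1) scale) in each of the 27 libraries for the 598 block members, the 658 tested genes of the collinear C06 stretch and the 1470 other tested A07 genes; symbols are libraries and short bars group means. In Pic 48 h the block sits at 0.32 and the C06 stretch at -0.53, while the rest of A07 stays between -0.04 and 0.03 in all groups.

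The balance within pairs differed between the groups. The A07 gene contributed a median of 78.6 ± 0.95% of the summed FPKM of its pair in Pic 48 h (SD of 3 libraries, 160 pairs), with 77.9 to 79.6% in the single libraries. In control 48 h leaves this share was 60.7 ± 1.5% and in Hal 48 h leaves 54.6 ± 1.9%. At 2 h it was 48.5 ± 1.2% in Hal, 66.2 ± 1.3% in Pic and 54.9 ± 0.34% in control leaves. At 96 h it was 62.9 ± 1.3% in Hal, 49.8 ± 0.89% in Pic and 51.6 ± 0.20% in control leaves. The group medians spanned 48.5 to 78.6%, and no group varied by more than 1.9 percentage points (SD) among its own libraries.

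The median of the summed levels stayed near zero, although single sums went both ways. In Pic 48 h the A07 gene was above its own median in 135 of the 160 pairs, the C06 gene below its own in 151, and both held in 127. The opposite signs were thus those of most pairs in this group, but less so elsewhere. The A07 gene was below and the C06 gene above its own median in 73 pairs in Hal 2 h, 89 in Pic 96 h and 46 in control 96 h, with 1, 5 and 5 pairs the other way round. In Pic 2 h the A07 gene was above and the C06 gene below in 71 pairs, and 7 were the other way round. In control 2 h these counts were 28 and 51, and in control 48 h 37 and 24. They were 21 and 39 in Hal 48 h and 34 and 20 in Hal 96 h. Only in Pic 48 h and Pic 96 h did most of the 160 pairs show opposite signs. The median deviation in Pic 48 h was 0.31 for the A07 genes, -0.59 for the C06 genes and -0.00 for the summed FPKM of the pair. Over the 9 groups the median deviation of the sums lay between -0.08 and 0.05. Against control 48 h, the sums of 37 pairs (23.1%) lay higher and of 44 pairs (27.5%) lower in all 3 Pic 48 h libraries. The shares over all tested genes were 18.8% and 21.7%, but these are of single genes and so an unlike measure. The C06 genes were lower in 103 of 160 (64.4%). Within a group the deviations of the partners were positively related over the 160 pairs, with Pearson's r between 0.18 in Pic 48 h and 0.70 in Hal 96 h. The pairs of a group share their libraries, so that r only describes these libraries.

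The share also changed along the block, and it did so differently in different groups. With the 160 pairs divided into 4 sections of 40 in A07 order, Pic 48 h was high throughout, with 77.2, 78.2, 73.7 and 83.2%. In control 2 h the share was higher in the first section (61.4 ± 1.6%) than in the last (48.6 ± 0.29%). In Hal 48 h it was 54.4, 47.0, 46.9 and 77.0%, so that the last section stood apart from the others. In control 48 h it was 50.3, 55.0, 61.4 and 72.9%. In Hal 96 h the share in the last 2 sections was 66.2 and 73.1%, after 54.2 and 55.7% in the first ones. Hal 2 h and Pic 96 h stayed between 44.6 and 56.6% in every section.

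**Figure D3:**
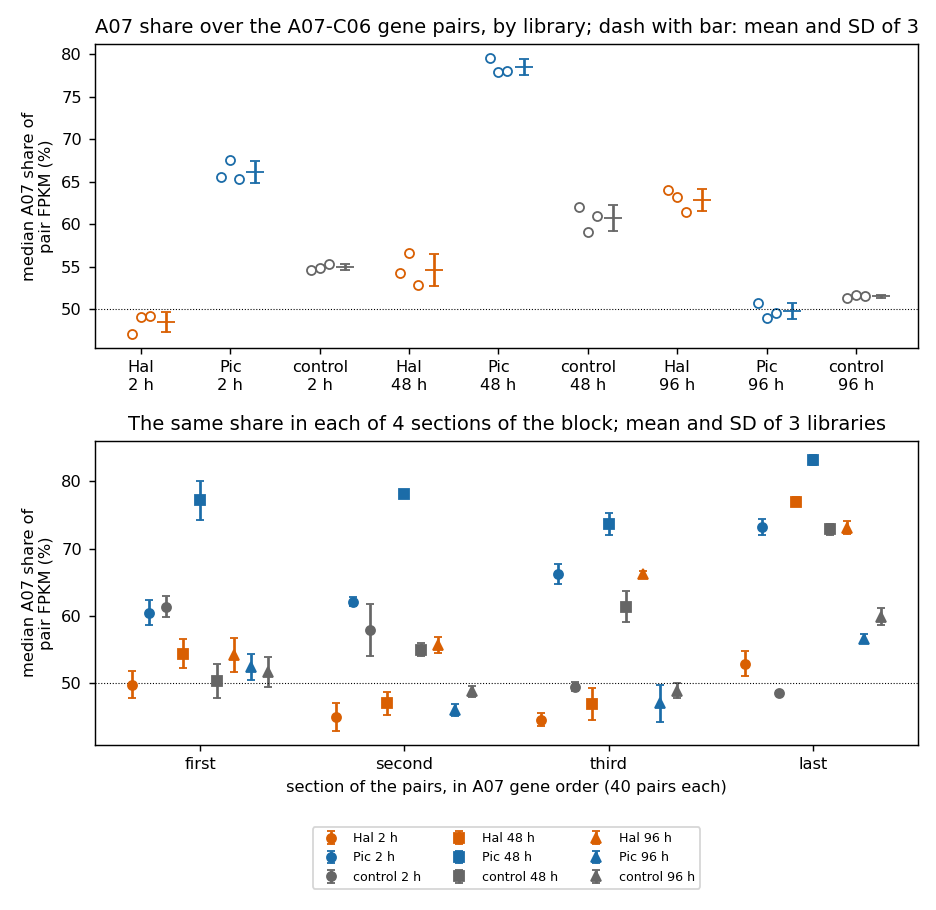
A07 share of the summed FPKM of A07-C06 gene pairs (median over pairs, %); the upper panel gives each library with the mean and SD of 3, the lower panel the mean and SD in each section of 40 pairs along the block. Pic 48 h is the highest group in each section, with 73.7 to 83.2%, and Hal 48 h reaches 77.0% only in the last.

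Of 15 pairs with a description 13 had a lower mean C06 level in Pic 48 h than in control 48 h, as in the first 2 of the pairs given here in FPKM. That count compares means only, and the share of all tested genes with a lower mean is not given here. BnaA07g25510D encodes an NADP-dependent isocitrate dehydrogenase, an enzyme that supplies 2-oxoglutarate and NADPH, and is paired with BnaC06g27300D. The A07 copy had 90.9, 91.1 and 91.0 FPKM in Pic 48 h, against 104, 81.0 and 90.4 FPKM in control 48 h. The C06 copy had 21.6, 24.9 and 21.5 FPKM in Pic 48 h, against 67.0, 56.8 and 60.4 FPKM in control 48 h. The A07 libraries of both groups overlapped while the C06 libraries did not, and the C06 copy was also low in control 2 h, with 29.1, 26.9 and 25.3 FPKM.

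BnaA07g25530D encodes glutamate decarboxylase, which forms the stress metabolite GABA from glutamate, and is paired with BnaC06g27330D. The A07 copy had 13.3, 13.4 and 13.3 FPKM in Pic 48 h, against a mean of 5.62 ± 0.523 FPKM in control 48 h (SD, n = 3). The C06 copy had 7.09, 7.73 and 8.46 FPKM in Pic 48 h, against 19.3, 21.5 and 23.6 FPKM in control 48 h. Neither copy overlapped between the groups, in opposite directions, and the summed level was 21.1 ± 0.694 FPKM in Pic 48 h and 27.1 ± 2.25 FPKM in control 48 h (SD, n = 3 each).

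The pair of beta-hexosaminidase genes, which encode an enzyme that trims N-glycans, went another way. The A07 copy BnaA07g25350D was at 15.1 ± 0.878 FPKM in Pic 48 h and 9.45 ± 0.961 FPKM in control 48 h (SD, n = 3 each). The C06 copy BnaC06g27130D had 9.70, 9.76 and 8.97 FPKM in Pic 48 h, against 5.95, 5.67 and 5.30 FPKM in control 48 h. Both copies were thus higher in each Pic library, and the sum was 24.6 ± 0.847 FPKM in Pic 48 h and 15.1 ± 0.995 FPKM in control 48 h.

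In the remaining comparisons the members were tested with limma on log2(FPKM + 1), fitted over all 46395 tested genes with Benjamini-Hochberg adjustment. A gene was called at an adjusted p under 0.05. The libraries of a group are labelled as replicates and were treated as independent samples. The comparisons use groups that did not choose the interval, but several share a control group. The median standard error of a member's log2 fold change was 0.16.

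Hal 2 h and Pic 2 h leaves differed over the block in one direction. Of the 598 members 201 were lower in Hal 2 h than in Pic 2 h (33.6%, against 11.2% of all tested genes) and 15 were higher (2.51%, against 9.04%). The median log2 fold change was -0.31 over the members and -0.00 over all tested genes, and only 100 members had a positive value. In the C06 stretch the median was 0.35, with 258 of 658 genes raised and 35 lowered. Over the pairs the median was -0.33 for the A07 genes, 0.35 for the C06 genes and -0.02 for the sums.

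Among the kinases and phosphatases of the block, enzymes that add or remove phosphate in signalling, 17 of 31 were lower in Hal 2 h than in Pic 2 h and none was higher. Their median was -0.49, against -0.06 for the 2117 tested genes of that list. How many of all tested genes of a list were called is not given, here or for the lists below. Among the transcription factors 8 of 24 were lower and none was higher (median -0.29, against -0.08 for the 1603 tested genes of the list), a share like the 33.6% of the whole block. One of them, MYB transcription factor 95 (BnaA07g31540D), had 4.84, 5.09 and 4.92 FPKM in Hal 2 h, against 17.2, 13.3 and 11.8 FPKM in Pic 2 h. The log2 fold change was -1.33 (SE 0.14, adjusted p = 1.3e-07), and the groups did not overlap. A hexosyltransferase (BnaA07g28600D), a sugar-transferring enzyme, had 6.01, 5.44 and 5.57 FPKM in Hal 2 h, against 14.9, 13.4 and 14.1 FPKM in Pic 2 h (log2 fold change -1.18, SE 0.13, adjusted p = 1.67e-07). Isocitrate dehydrogenase was lower in Hal 2 h too, by 0.61 on the log2 scale.

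After 48 h of Hal the block was mixed. Compared with control 48 h, 122 members rose (20.4%, against 23.3% of all tested genes) and 180 fell (30.1%, against 25.1%), shares not far from those of the table as a whole. The median was -0.12 over the members and 0.01 over all tested genes. Rises made up 40.4% of the called members with the FPKM as deposited, but 65.1% when each library was scaled to the same total of reads. That scaling moved the median of all tested genes by 0.25 and that of the members to 0.16. The sign of the members' median thus depended on it, but on both scales that median lay below the one of all tested genes. The share of rises over all called genes with equal totals is not given here.

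Among described members the falls after 48 h of Hal were led by genes of translation and of central metabolism. Of 6 members in the list for ribosome and translation 5 fell and none rose (median -0.98, against -0.79 for the 505 tested genes of the list). The list was made by words and also takes in the transcription elongation factor spt6 (BnaA07g25270D), which is not a translation gene. 40S ribosomal protein SA (BnaA07g30140D), a component of the small ribosomal subunit, had 24.0, 24.8 and 21.0 FPKM in Hal 48 h, against 93.3, 109 and 98.9 FPKM in control 48 h. Its log2 fold change was -2.06 (SE 0.09, adjusted p = 7.38e-15). 50S ribosomal protein L31 (BnaA07g32060D), of the organellar type of ribosome, had 203, 187 and 192 FPKM in Hal 48 h, against 634, 525 and 553 FPKM in control 48 h. All 3 Hal libraries of both genes were far below the control libraries.

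Pyruvate dehydrogenase E1 component subunit alpha (BnaA07g28560D) belongs to the complex that turns pyruvate into acetyl-CoA. It had 11.1, 8.58 and 9.19 FPKM in Hal 48 h, against 45.1, 51.3 and 44.7 FPKM in control 48 h (log2 fold change -2.18, SE 0.09, adjusted p = 3.62e-15). Its C06 partner BnaC06g31170D had 5.49, 5.10 and 5.84 FPKM in Hal 48 h, against 8.94, 13.6 and 11.7 FPKM in control 48 h, and was thus also lower in each Hal library. Delta-aminolevulinic acid dehydratase (BnaA07g28250D), an enzyme of chlorophyll and haem synthesis, was at 13.4 ± 1.24 FPKM in Hal 48 h and at 33.6 ± 0.569 FPKM in control 48 h (SD, n = 3 each). Protein HHL1 (BnaA07g26600D), a chloroplast protein, was at 46.0 ± 2.69 FPKM in Hal 48 h and 74.6 ± 5.08 FPKM in control 48 h.

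Fewer described members rose after 48 h of Hal. NAC transcription factor 29 (BnaA07g28000D), of a plant family with members that act in senescence and stress, had 4.99, 3.70 and 4.58 FPKM in Hal 48 h, against 0.255, 0.356 and 0 FPKM in control 48 h. The log2 fold change was 2.18 (SE 0.17, adjusted p = 8.03e-11), but 4.15 with a pseudocount of 0.1. Glutamate decarboxylase had 16.5, 17.3 and 16.2 FPKM in Hal 48 h, against the same control 48 h libraries as above (log2 fold change 1.42, SE 0.11, adjusted p = 6.64e-11). Its C06 partner had 47.4, 48.9 and 49.9 FPKM in Hal 48 h, against 19.3, 21.5 and 23.6 FPKM in control 48 h, so that both copies were higher. The sulfotransferase BnaA07g31260D rose by 0.61 on the log2 scale and an auxin response factor (BnaA07g25390D), which binds auxin-regulated promoters, by 0.59. The auxin response factor was at 1.90 ± 0.208 FPKM in Hal 48 h and 0.918 ± 0.105 FPKM in control 48 h (SD, n = 3 each).

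After 96 h of Hal more members rose than fell. Compared with control 96 h, 220 members rose (36.8%, against 29.1% of all tested genes) and 161 fell (26.9%, against 30.2%). The median was 0.15 over the members, 0.01 over all tested genes and -0.28 over the C06 stretch, in which 110 of 658 genes rose and 286 fell. Rises made up 57.7% of the called members as deposited and 81.8% with equal totals. That scaling moved the median of all tested genes by 0.41 and that of the members to 0.60. The 81.8% alone therefore cannot be read as a trait of the block. Over the pairs the median was 0.27 for the A07 genes, -0.18 for the C06 genes and 0.09 for the sums.

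Kinases and phosphatases of the block rose in 22 of 31 cases and fell in 1 (median 0.60, against 0.39 for all tested genes of the list). Serine/threonine-protein phosphatase BnaA07g28500D had 13.4, 11.4 and 11.6 FPKM in Hal 96 h, against 4.12, 5.09 and 3.64 FPKM in control 96 h (log2 fold change 1.32, SE 0.13, adjusted p = 7.92e-09). Its C06 partner BnaC06g31070D stood at 4.14 ± 0.358 FPKM in Hal 96 h and 4.49 ± 0.675 FPKM in control 96 h, so that the groups differed in the A07 copy and overlapped in the C06 copy. Transporters rose in 6 of 14 cases and fell in 2 (median 0.33, against 0.12 for all tested genes of the list). A sucrose transporter (BnaA07g23350D), which moves sucrose across membranes, had 26.9, 37.0 and 30.3 FPKM in Hal 96 h, against 17.0, 15.4 and 14.0 FPKM in control 96 h (log2 fold change 0.97, SE 0.12, adjusted p = 3.4e-07).

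NAC transcription factor 29 reached 8.81, 9.45 and 10.4 FPKM in Hal 96 h, against 0.0915, 0 and 0 FPKM in control 96 h, where it rested on 1 read in all. The log2 fold change of 3.35 (SE 0.17, adjusted p = 1.27e-14) depends on the pseudocount of 1 and is no bound on the ratio. Its C06 partner BnaC06g30680D had 5.53, 4.90 and 7.73 FPKM in Hal 96 h and was listed at 0 in all 3 control 96 h libraries. Glutamate decarboxylase had 32.1, 30.2 and 32.4 FPKM in Hal 96 h, against 9.06, 8.91 and 12.1 FPKM in control 96 h (log2 fold change 1.57, SE 0.11, adjusted p = 4.8e-12). Its C06 partner was higher too, at 70.3 ± 2.75 FPKM in Hal 96 h and 24.7 ± 1.85 FPKM in control 96 h. Defensin 1.2 (BnaA07g32150D), an antimicrobial peptide of plant defence and the most abundant described member, had 1785, 1670 and 1615 FPKM in Hal 96 h, against 602, 631 and 739 FPKM in control 96 h. Its log2 fold change was 1.37 (SE 0.17, adjusted p = 2.04e-07).

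Of the 6 members in the list for ribosome and translation 5 were lowered at 96 h and 1 was raised (median -1.03, against -0.87 for the list). 50S ribosomal protein L31 had 184, 166 and 172 FPKM in Hal 96 h, against 731, 753 and 886 FPKM in control 96 h (log2 fold change -2.17, SE 0.11, adjusted p = 4.45e-14). Pyruvate dehydrogenase E1 alpha had 10.8, 11.0 and 9.57 FPKM in Hal 96 h, against 43.9, 44.2 and 42.1 FPKM in control 96 h (log2 fold change -1.95, SE 0.09, adjusted p = 9.17e-15). An acyl carrier protein (BnaA07g25220D), which holds the growing chain in fatty acid synthesis, had 3.64, 1.18 and 2.80 FPKM in Hal 96 h, against 10.8, 11.6 and 7.49 FPKM in control 96 h. It fell by 1.68 on the log2 scale (SE 0.29, adjusted p = 2.61e-05). The 1 raised member of the list was the transcription elongation factor spt6 (BnaA07g25270D), which is not a translation gene. It was at 3.83 ± 0.433 FPKM in Hal 96 h and 1.62 ± 0.269 FPKM in control 96 h (SD, n = 3 each). The C06 partners of the last 3 genes changed in the same direction as the A07 copies. Their means in Hal 96 h and control 96 h were 2.35 and 16.6 FPKM for pyruvate dehydrogenase E1 alpha. They were 1.80 and 3.98 FPKM for the acyl carrier protein and 2.97 and 1.39 FPKM for spt6.

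**Figure D4:**
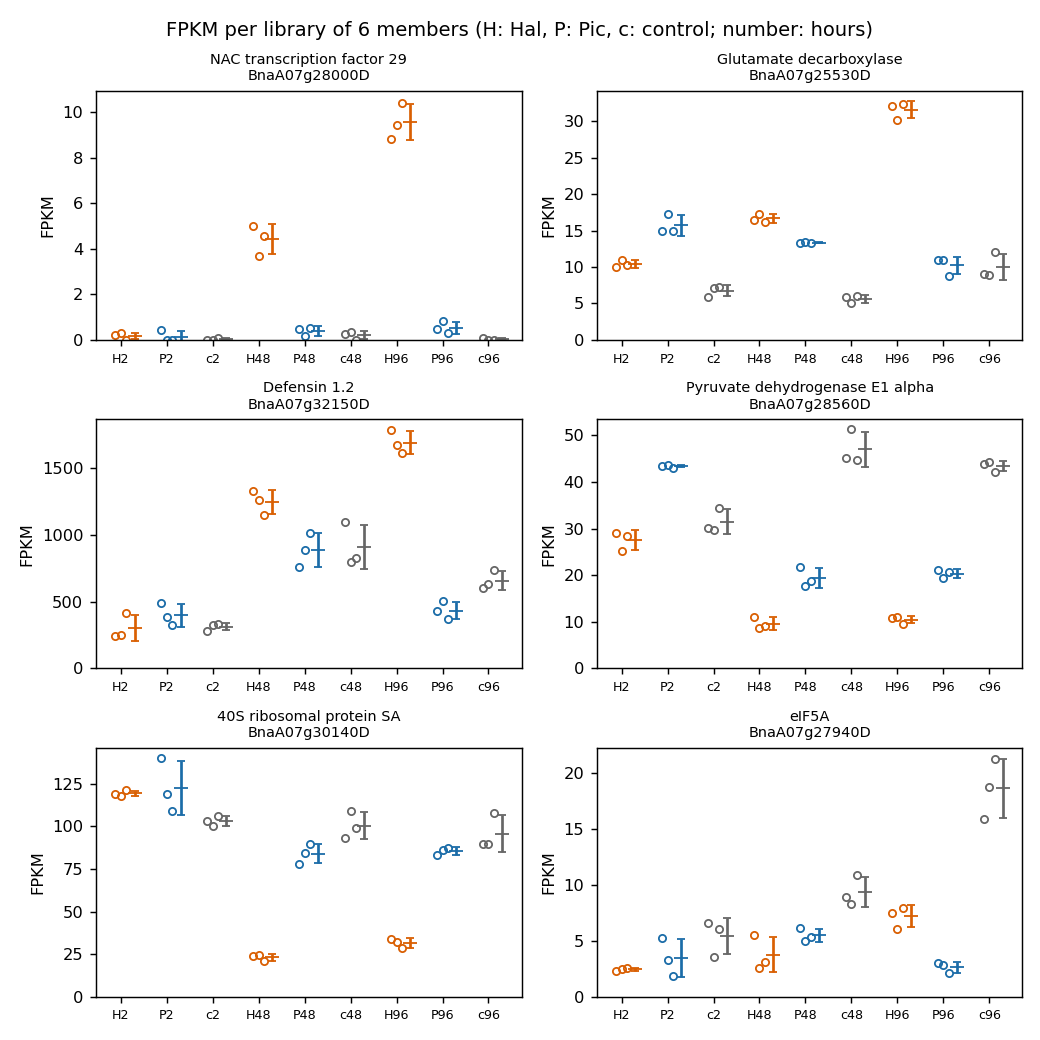
FPKM of 6 members in every library (circles), with the mean and SD of 3 beside them; H is Hal, P Pic and c control, followed by hours. NAC transcription factor 29 lies between 8.81 and 10.4 FPKM in Hal 96 h and at or below 0.0915 FPKM in control 96 h, and 40S ribosomal protein SA lies at or below 34.1 FPKM in Hal 48 h and Hal 96 h.

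Between Pic 96 h and control 96 h the block differed about as much as the whole table. Both groups were displaced in the same direction over the block, with median deviations of -0.13 in Pic 96 h and -0.09 in control 96 h. Compared with control 96 h, 125 members rose (20.9%, against 22.2% of all tested genes) and 171 fell (28.6%, against 26.4%), with a median of -0.03 over the members and -0.01 over all tested genes. Rises made up 42.2% of the called members as deposited and 74.0% with equal totals, where the members had a median of 0.26 and all tested genes were moved by 0.29. The 74.0% alone therefore cannot be read as a trait of the block either. Kinases and phosphatases rose in 18 of 31 cases and fell in 1 (median 0.41, against 0.22 for the list).

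The strongest fall among described members was that of eukaryotic translation initiation factor 5A (BnaA07g27940D), which assists peptide bond formation on the ribosome. It had 2.99, 2.81 and 2.09 FPKM in Pic 96 h, against 15.9, 18.7 and 21.2 FPKM in control 96 h (log2 fold change -2.43, SE 0.23, adjusted p = 6.22e-09). MYB transcription factor 95 had 11.7, 11.2 and 9.09 FPKM in Pic 96 h, against 40.7, 35.1 and 36.3 FPKM in control 96 h (log2 fold change -1.72, SE 0.14, adjusted p = 4.64e-10). 50S ribosomal protein L31 fell by 1.48 and pyruvate dehydrogenase E1 alpha by 1.06 on the log2 scale. The rises were smaller, with 0.98 for the elongation factor spt6 and 0.64 for a lipoxygenase (BnaA07g24960D), an enzyme family that oxygenates fatty acids and feeds jasmonate synthesis. The C06 partners of both were higher too. Their means in Pic 96 h and control 96 h were 3.40 and 1.39 FPKM for spt6 and 1.47 and 0.677 FPKM for the lipoxygenase. NAC transcription factor 29 rose by 0.55 (adjusted p = 0.00829), with 0.456, 0.821 and 0.294 FPKM in Pic 96 h, and the call was lost without the second Pic library (0.41).

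Set directly against each other, Hal 96 h was higher than Pic 96 h in 223 members (37.3%, against 23.0% of all tested genes) and lower in 99 (16.6%, against 22.0%). The median was 0.24 over the members, 0.03 over all tested genes and -0.24 over the C06 stretch. Glutamate decarboxylase was higher in Hal 96 h by 1.54 (SE 0.11, adjusted p = 1.72e-11) and defensin 1.2 by 1.97 (SE 0.17, adjusted p = 8.07e-10). Defensin 1.2 stood at 1690 ± 86.6 FPKM in Hal 96 h and at 433 ± 65.4 FPKM in Pic 96 h (SD, n = 3 each). 40S ribosomal protein SA was lower in Hal 96 h by 1.41, with 31.7 ± 2.81 FPKM in Hal 96 h and 85.5 ± 2.23 FPKM in Pic 96 h. Transporters were higher in Hal 96 h in 8 of 14 cases and lower in 1 (median 0.46, against 0.06 for all tested genes of the list). Transcription factors were higher in 10 of 24 and lower in 2 (median 0.20, against 0.18 for the list).

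The block also differed between control leaves of different age. In control 96 h, 126 members were lower than in control 48 h (21.1%, against 12.3% of all tested genes) and 68 higher (11.4%, against 17.5%). The median was -0.13 over the members, 0.01 over all tested genes and 0.20 over the C06 stretch, where 206 of 658 genes were higher and 38 lower. Over the pairs the medians were -0.18 for the A07 genes, 0.17 for the C06 genes and -0.06 for the sums. No herbicide was applied in either group. The groups were also separate leaves, so that age and differences between plants cannot be told apart here.

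**Figure D5:**
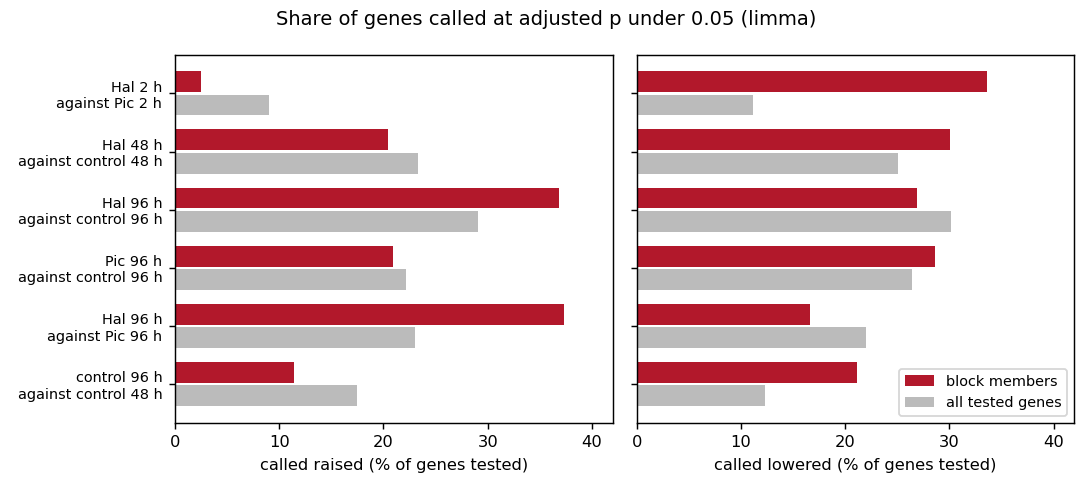
Percentage of genes called at an adjusted p under 0.05 (limma) as raised (left) or lowered (right) in 6 comparisons, for the 598 block members and for all 46395 tested genes. Members called lowered stand at 33.6% in Hal 2 h against Pic 2 h, where all tested genes stand at 11.2%, and at 28.6% in Pic 96 h against control 96 h, where all tested genes stand at 26.4%.

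Lists of other functions had few members in the block, and their counts are given for the Hal 96 h comparison with control 96 h. There 36.8% of the block rose and 26.9% fell, against 29.1% and 30.2% of all tested genes. Transcription factors rose in 9 of 24 cases and fell in 7. RNA binding and processing had 3 of 9 raised and 2 lowered, redox enzymes and cytochromes P450 3 of 5 raised and 1 lowered, and chaperones 2 of 4 raised and 2 lowered. Ubiquitin and proteasome genes had 2 of 6 raised and none lowered, cell wall genes 1 of 6 raised and none lowered, and auxin genes 1 of 4 raised and none lowered. Of the 2 histone and chromosome genes 1 was lowered. No member belonged to the photosynthesis list. With so few members these counts say little of a single list. In Pic 48 h, where 77.3 to 79.9% of the members and 47.7 to 48.5% of all tested genes stood above their own medians, this held for 29 of 31 kinases and phosphatases, 21 of 24 transcription factors, 11 of 14 transporters and 6 of 6 cell wall genes. It held for 4 of 6 members of the list for ribosome and translation, spt6 included, and for 4 of 6 ubiquitin and proteasome genes. It also held for 2 of 4 auxin genes (median deviation -0.09), all as a description of the group that chose the interval.

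Described members did not all follow the block in Pic 48 h. The 3-ketoacyl-CoA synthase BnaA07g24600D, which elongates very-long-chain fatty acids, had the highest deviation among them (0.84), with 18.9, 19.5 and 18.4 FPKM in Pic 48 h, against 10.1, 12.6 and 10.4 FPKM in control 48 h. A phosphatidylinositol-forming transferase (BnaA07g24850D) followed with 0.70 and beta-hexosaminidase (BnaA07g25350D) with 0.66. At the other end the sucrose transporter deviated by -1.26, with 10.5, 9.92 and 10.5 FPKM in Pic 48 h, against 13.8, 21.6 and 16.6 FPKM in control 48 h. Pyruvate dehydrogenase E1 alpha deviated by -0.54, yet its A07 share was 85.0% in Pic 48 h, against 80.6% in control 48 h, since its C06 partner was low as well.

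The largest changes over all members concerned genes mostly without a description, which are named here after their values were seen. BnaA07g28080D fell to 8.39 ± 0.245 FPKM in Hal 48 h, against 130 ± 2.02 FPKM in control 48 h (log2 fold change -3.80, SE 0.07, adjusted p = 6.64e-22). BnaA07g24270D, which carries the NAM domain of NAC transcription factors, was at 22.0 ± 2.23 FPKM in Hal 48 h and 2.07 ± 0.544 FPKM in control 48 h (log2 fold change 2.92, SE 0.22, adjusted p = 7.00e-11). BnaA07g28050D, with a methyltransferase domain, was at 12.9 ± 0.753 FPKM in Hal 96 h, 8.57 ± 0.993 FPKM in Pic 96 h and 168 ± 7.65 FPKM in control 96 h.

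BnaA07g30390D was at 41.9 ± 7.68 FPKM in control 96 h and 0.279 ± 0.104 FPKM in control 48 h, the largest rise in that comparison (log2 fold change 5.05, SE 0.14, adjusted p = 9.21e-19). In the treated leaves at 48 h it had 7.51 ± 0.894 FPKM in Hal and 37.4 ± 3.23 FPKM in Pic. BnaA07g25000D was at 40.9 ± 5.97 FPKM in Pic 2 h and at 0.612 ± 0.605 FPKM in Hal 2 h, and without a read in all 3 control 96 h libraries, against 21.6 ± 4.17 FPKM in Hal 96 h. BnaA07g28400D was at 10.3 ± 0.863 FPKM in Hal 96 h and 10.9 ± 1.43 FPKM in Pic 96 h, against 0.0330 ± 0.0572 FPKM in control 96 h (SD, n = 3 each).

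Complete absence from a group was no more frequent in the block than elsewhere. For 11 members (1.84%) all 3 libraries of at least one group held no read while all 3 libraries of another group held 1 FPKM or more, against 1076 of all tested genes (2.32%). The last member of the block, BnaA07g32880D, was one of them, with 2.59 ± 0.862 FPKM in Hal 96 h and no reads in Pic 96 h and control 96 h. BnaA07g25450D had no read in Pic 48 h, against 3.08 FPKM in control 48 h, where it rested on 11 reads in all.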

How the data were processed

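The authors deposited a single table of FPKM values for all libraries, with gene length, position, description and protein domain per gene. The submitters' processing notes name CASAVA, HISAT2, StringTie, DESeq2, edgeR and GATK; versions, roles and the genome build are not given in the sources used here. The study's supplementary method text was not used here. The deposited FPKM times gene length came out as whole multiples of a fixed step in each library (tolerance 0.01), from which the totals of reads were recovered. 0 columns of samples outside the series were used. The interval, the gene lists and the tests were chosen with earlier results of these data known.

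All genes past the filter given above (1 FPKM, 3 libraries) entered limma 3.58.1 (R 4.3.3) as log2(FPKM + 1), in a linear model of the 9 groups with empirical Bayes moderation and Benjamini-Hochberg adjustment over all 46395 genes. A log2 fold change on this scale understates the change of low genes. limma was tested on simulated data first. Windows, deviations and pair shares were computed with Python 3.11.15, numpy 2.4.6 and pandas 2.3.3.

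The C06 partners were found by aligning gene order (domain or description, and gene lengths within a ratio of 2, gap cost 0.6). Of the members 36 matched a RefSeq symbol of the Da-Ae assembly, which was used for names only, and no sequence was analysed here.

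Genes with a description were named by rule: the 10 with the highest mean FPKM; up to 3 rises and 3 falls per herbicide comparison with the control at 48 or 96 h; the 4 highest and 4 lowest deviations in Pic 48 h and in control 2 h; and the genes at the edges. Other described members stand as examples of their lists, and further genes are named as chosen after their values were seen. Alternatives were another pseudocount (0.1), a filter of 5 FPKM or none, equal library totals, limma voom on the recovered reads, only the 6 libraries compared, a replicate block, the other 2 groups of the same time as the base of deviations, and leaving out each library.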

Additional observations from a re-analysis of the deposited data

Results flagged for a closer look

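For 5 of 8 described members named for their Hal response, the response to Hal, relative to the control of the same time, differed between 96 h and 48 h by a limma interaction term adjusted over all tested genes. The 8 were named by the size of these same responses, which favours a larger value at the time of naming. The count of 5 is thus a description, and the share called over all tested genes is not given here. NAC transcription factor 29 (BnaA07g28000D) rose more at 96 h (3.35) than at 48 h (2.18), a difference of 1.18 (SE 0.23, adjusted p = 5.18e-04). Defensin 1.2 (BnaA07g32150D) had log2 fold changes of 1.37 at 96 h and 0.47 at 48 h, a difference of 0.90 (SE 0.24, adjusted p = 0.00684). 50S ribosomal protein L31 (BnaA07g32060D) had -2.17 at 96 h and -1.55 at 48 h, a difference of -0.62 (SE 0.16, adjusted p = 0.00568). 40S ribosomal protein SA (BnaA07g30140D) had -1.56 at 96 h and -2.06 at 48 h, a difference of 0.50 (SE 0.13, adjusted p = 0.00631). The acyl carrier protein (BnaA07g25220D) had -1.68 at 96 h and -0.54 at 48 h, a difference of -1.14 (SE 0.41, adjusted p = 0.0442), and 1 of its control 48 h libraries (7.97 FPKM) stood apart from the others (2.75 and 2.83 FPKM). Settings chosen after seeing the data changed some of these calls. With equal library totals the difference of L31 was -0.36 (adjusted p = 0.0701) and that of the acyl carrier protein -0.89 (adjusted p = 0.121), while defensin 1.2 (1.16), 40S ribosomal protein SA (0.76) and NAC transcription factor 29 (1.29) stayed past the threshold. The call for NAC transcription factor 29 was lost with a pseudocount of 0.1 (2.13, adjusted p = 0.0878) and with voom (2.47, adjusted p = 0.127), and that for the acyl carrier protein with a pseudocount of 0.1 (-1.37, adjusted p = 0.0588) and without a filter (-1.14, adjusted p = 0.0807). The controls of the 2 times also differed over the block, and the part of that difference in these values was not tested.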

How the results depend on the processing

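Of 429 alternative values for 37 results, 392 kept their direction and call or stayed near the reported value. Equal library totals moved 6 of the 12 counts by more than 1.5 times. That scaling shifts the whole table, and the counts over all tested genes with it are not given here. Against control 48 h, members raised in Hal went to 207 and members lowered to 111; for Hal 96 h the counts became 355 and 79, and for Pic 96 h 242 and 85. The filter of 5 FPKM left 303 members, so fewer were called as raised: 8 in Hal 2 h against Pic 2 h, 70 in Hal 48 h, 111 in Hal 96 h, 65 in Pic 96 h and 138 in Hal 96 h against Pic 96 h. With only the 6 libraries compared, Hal 2 h against Pic 2 h gave 6 raised and 120 lowered members, and control 96 h against control 48 h gave 39 raised.

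The median deviation in Pic 48 h was 0.42 with a pseudocount of 0.1, 0.16 without a filter, 0.35 with the filter of 5 FPKM, 0.26 with equal totals, 0.38 relative to the other 2 groups of that time and 0.33 to 0.34 without each replicate. In control 2 h these values were -0.03, 0.00 (reversed in sign), -0.08, -0.00 and -0.03, and -0.04 without each replicate in turn. Without a filter, 913 of the 1080 genes of the interval enter. For the 18 named responses, 1 call was lost, the rise of NAC transcription factor 29 in Pic 96 h without its second library (0.41). The size of its changes depended on the scale for low values: with a pseudocount of 0.1 and with voom on recovered reads the log2 fold changes were 4.15 and 4.74 in Hal 48 h, 6.28 and 7.21 in Hal 96 h, and 2.24 and 3.02 in Pic 96 h. The rise of the sulfotransferase BnaA07g31260D in Hal 48 h was 0.99 and 1.04 under these settings, and that of the lipoxygenase BnaA07g24960D in Pic 96 h 0.98 with voom.

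The replicate numbers did not pair the samples, since same-numbered deviations correlated between -0.208 and 0.109. With the replicate as a block the counts raised and lowered were 13 and 187 in Hal 2 h against Pic 2 h, 121 and 174 in Hal 48 h, 218 and 152 in Hal 96 h, and 112 and 168 in Pic 96 h. Genes under about 1 FPKM rest on few reads, which limits what can be said of them.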
